A study of Rattus norvegicus with 42 samples.

Results

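The genes described here encode proteins of the brain's blood vessel lining and of its barrier: Cldn5, Ocln and Tjp1 of the tight junction, Pecam1, Cdh5 and Tek of the endothelial surface, the carriers Slc2a1 and Mfsd2a, and the efflux pumps Abcb1a and Abcg2. They were chosen by symbol, and all 10 symbols were found in the count table, each as 1 transcript, among 15516 transcripts of 14304 symbols. All 10 passed the filter on low counts that left 13062 transcripts for testing. RNA was sequenced from the hippocampus of Sprague Dawley rats that received 1 intraperitoneal injection on postnatal day 7 and were killed 72 h later, on postnatal day 10. The pups were male. The treatments compared were saline vehicle (VEH, 13 animals), phenobarbital at 75 mg/kg (PB, 14 animals) and levetiracetam at 200 mg/kg (LEV, 14 animals), both drugs being used against seizures in newborns. Whole dissected hippocampus was used, so that endothelial RNA came mixed with that of neurons and glia. A fourteenth vehicle animal, number 7, carries a label saying that it was excluded, and it stayed out of the comparisons.

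Brain endothelial cells are sealed to each other by tight junctions and pass little by transcytosis, so that most solutes cross only through carriers, while efflux pumps return many drugs to the blood. Claudin-5 is the main claudin of these junctions, occludin is a second membrane protein of the same strands, and ZO-1, the product of Tjp1, ties them to the actin skeleton. The barrier forms before birth in rodents and its carriers and pumps go on maturing after birth. Tjp1, Ocln and Slc2a1 are also made outside the endothelium, Ocln in epithelia such as the choroid plexus, which lies beside the hippocampus.

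Promoter sequence was available from RefSeq (build GRCr8) for 6 of the 10 genes, and none was found for Pecam1, Cdh5, Tek and Mfsd2a. The 250 bases before the start site are shown for Cldn5 and Ocln, the claudin and the occludin of the same junction strand. Their levels over the 41 animals had no clear correlation (Pearson r = -0.115, permutation p adjusted over the pairs 0.709). Whether promoter sequence has a part in this was not tested. The Cldn5 stretch lies on the minus strand at chr11:95718599-95718848 and the Ocln stretch on the minus strand at chr2:33441199-33441448, both in GRCr8. Capitals mark the letters CCAAT or GGGCGG on either strand, which read ATTGG and CCGCCC on the opposite strand.

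Cldn5: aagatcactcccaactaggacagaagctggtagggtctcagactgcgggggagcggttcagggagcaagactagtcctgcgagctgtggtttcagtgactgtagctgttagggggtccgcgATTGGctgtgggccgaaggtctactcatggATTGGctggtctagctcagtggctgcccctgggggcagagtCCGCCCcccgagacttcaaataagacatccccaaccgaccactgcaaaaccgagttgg

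Ocln: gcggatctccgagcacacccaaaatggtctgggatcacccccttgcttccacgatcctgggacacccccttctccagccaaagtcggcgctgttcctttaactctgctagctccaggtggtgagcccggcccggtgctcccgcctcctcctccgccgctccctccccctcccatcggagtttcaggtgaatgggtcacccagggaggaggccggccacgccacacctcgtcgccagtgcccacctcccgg

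The Cldn5 stretch held CCAAT at 2 places and GGGCGG at 1 place, and the Ocln stretch held neither. CCAAT stood in 34% and GGGCGG in 30.5% of the 33469 promoters of the table when their 250 bases were searched on both strands. These matches describe letters and were not read as binding sites.

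The totals over the transcripts ranged from 9499492 to 14488134 counts per animal, with medians of 11712468 for VEH, 11103898 for PB and 11338328.5 for LEV. Together the 10 genes had 4363 to 6409 of these counts in an animal, which was 0.0380% to 0.0515% of the total. The lowest single count was 8, for Abcg2, and that gene had at most 58 counts in any animal. Prox1, Zbtb20, Neurod2 and Grik4, which hippocampal neurons express, were present in every animal with at least 170 counts. They do not mark these neurons alone, and the paper counts Zbtb20 among astrocyte-enriched genes. Animals 1 to 6 of each group have sample codes of another form than animals 7 to 14, and 30.2% of all transcripts differed between these series at an adjusted p under 0.05 in the fit. The form of the code was therefore a term in every comparison. Of the 10 genes, 3 differed between the series. Cldn5 was lower in the later animals by a log2 difference of -0.25 (SE 0.0471, adjusted p = 8.2e-05), Abcb1a by -0.16 (SE 0.045, adjusted p = 0.00498), and Tjp1 was higher by 0.21 (SE 0.0282, adjusted p = 2.7e-07). Summed red blood cell transcripts moved with the same split, at 10760 to 15120 normalized counts in VEH animals 1 to 6 and 258.3 to 6863 in VEH animals 7 to 14, and their part in these differences was not tested.

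The barrier genes differed little between the treatments, and 1 gene in 1 comparison passed the test. After PB the level of Cldn5 fell by 13.9% from that after LEV. In PB against VEH, 0 of the 10 genes passed an adjusted p under 0.05 in the edgeR test, where 5.39% of all 13062 transcripts passed, and 2 of 10 genes had an unadjusted p under 0.05, as did 20.2% of all transcripts. DESeq2 also called 0 of them, and 899 of all transcripts. In LEV against VEH 0 of 10 passed, against 0.00766% of all transcripts, and 0 had an unadjusted p under 0.05, where 5.84% of all transcripts did. Here DESeq2 again called 0 of them, and 10 of all transcripts. In PB against LEV 1 of 10 passed, where 4.45% of all transcripts passed in either direction and 2.78% passed as lower in PB. With so few genes, 1 call is near the number that the background share gives. When a log2 fold change of at least 0.32 in size was also asked, 0 genes passed in any comparison, and the shares over all transcripts were 0.605% for PB against VEH, 0% for LEV against VEH and 0.582% for PB against LEV.

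The signs of the estimates were uneven in each comparison, and they were opposite for the drugs against VEH. After PB, 8 of the 10 genes had estimates below VEH, with a median log2 fold change of -0.0545 where the median over all transcripts was 0.00462. After LEV, 9 of 10 had estimates above VEH, with a median of 0.0551 against 0.000329. Between the drugs, 9 of 10 had estimates lower in PB, with a median of -0.117 against 0.00326. These 3 sets of values rest on the same animals, VEH serving both drugs, and so they are not separate observations. In bulk tissue, fewer endothelial cells and less RNA per endothelial cell cannot be told apart.

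**Figure D1:**
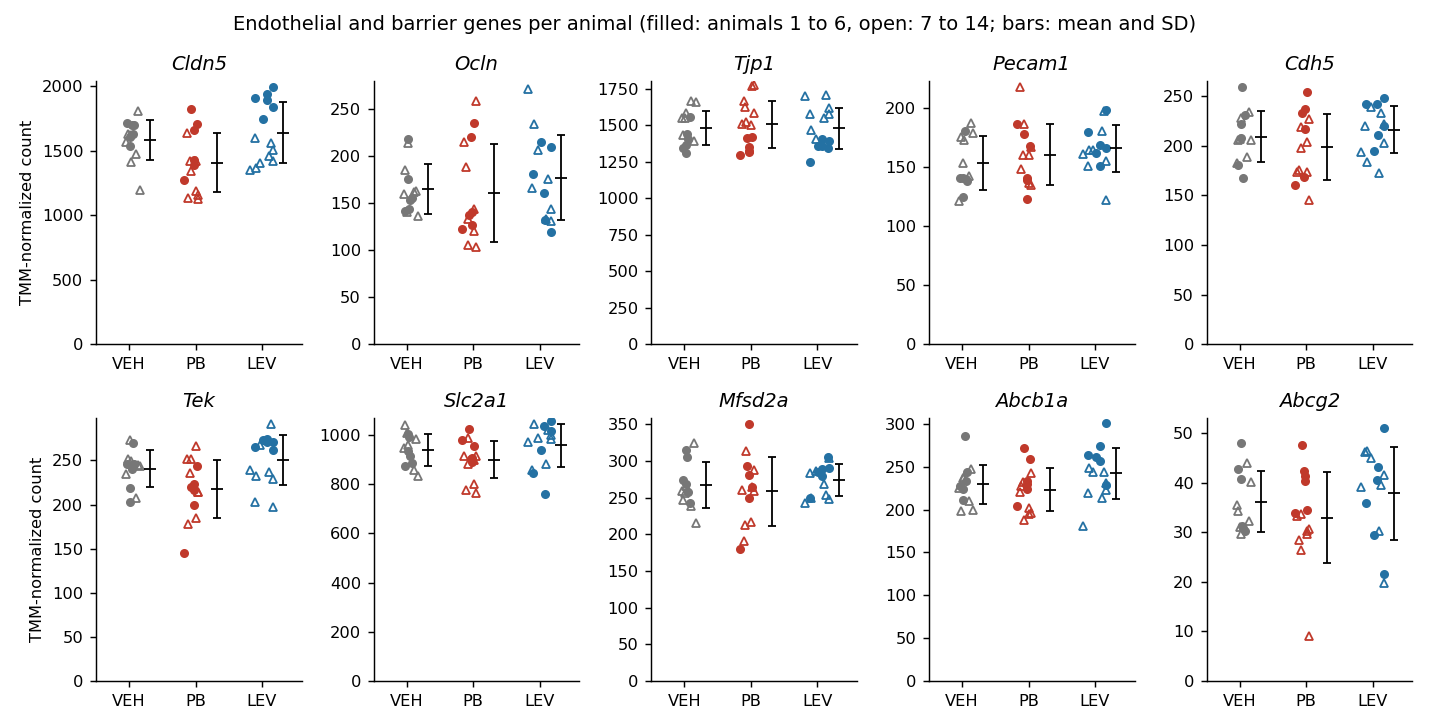
TMM-normalized counts of the 10 genes, 1 point per animal, for VEH (n = 13), PB (n = 14) and LEV (n = 14), with the group mean and SD as a bar; each vertical axis starts at 0, filled circles are animals 1 to 6 and open triangles animals 7 to 14. The groups overlap in all 10 genes, and the Abcg2 point at 9.17 is PB animal 8.

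The plot of each gene by animal shows these levels as normalized counts, the raw count scaled by the TMM library size to the mean library of the 41 animals. Levels of different genes are not compared with each other, because transcript lengths were not used.

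The tight junction genes come first. Cldn5 (NM_031701, chr11:86356292-86357719 in rn6, positions as the table lists them here and after) ranged from 1193 to 1809 normalized counts in VEH with a median of 1621. It ranged from 1124 to 1826 with a median of 1402 in PB, and from 1353 to 1997 with a median of 1577 in LEV. The 3 groups overlapped, with PB lowest in its centre. Mean levels were 1583 ± 157 (SD, n = 13) in VEH, 1409 ± 227 (SD, n = 14) in PB and 1641 ± 237 (SD, n = 14) in LEV. Against LEV, the level in PB fell by 13.9% (log2 fold change -0.22, SE 0.0568, 95% interval -0.33 to -0.10, adjusted p = 0.0227), and 13 of the 14 PB animals lay under the mean of the LEV animals in the same series. Cldn5 was the transcript ranked 263 by p in that comparison. Against VEH, the estimate in PB was -0.17 (SE 0.0578, 95% interval -0.28 to -0.05, adjusted p = 0.0821), where 10 of 14 animals lay under the mean of their series in VEH. LEV and VEH differed by 0.05 (SE 0.0577, 95% interval -0.07 to 0.17, adjusted p = 0.955).

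The Cldn5 call held in all 41 fits that left out 1 animal, with adjusted p from 0.00646 to 0.0497. It was lost without the series term (adjusted p = 0.0894), with all 14 VEH animals in the fit (0.0807), and within either series alone, at -0.29 in animals 1 to 6 (SE 0.068, adjusted p = 0.0535) and -0.16 in animals 7 to 14 (SE 0.0769, adjusted p = 0.332). The direction was the same in each of these, and fewer of all transcripts passed in each than the 581 of the main fit. The difference from VEH passed the test in PB when VEH animal 10 (adjusted p = 0.0436) or PB animal 13 (adjusted p = 0.0283) was left out.

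Ocln (NM_031329, chr2:30527328-30577219) had 136.7 to 217.6 normalized counts in VEH with a median of 159.2, 103 to 258.9 with a median of 138.8 in PB, and 119.4 to 271.3 with a median of 171 in LEV. Its spread was the widest of the 10 genes, with an animal-to-animal coefficient of variation of 25.9%, and the groups overlapped over nearly their whole range. The log2 differences were -0.05 for PB against VEH (SE 0.134), 0.10 for LEV against VEH (SE 0.134) and -0.14 for PB against LEV (SE 0.131), and the smallest of the 3 adjusted p was 0.59.

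Tjp1 (NM_001106266, chr1:126146489-126211440), the gene of the scaffold ZO-1, was the steadiest, with a coefficient of variation of 6.23%. It ran from 1313 to 1667 in VEH with a median of 1442, from 1300 to 1778 in PB with a median of 1505, and from 1251 to 1708 in LEV with a median of 1437. Differences between treatments lay between -0.01 and 0.02 on the log2 scale, and the 95% intervals of all 3 comparisons stayed within -0.08 and 0.09. For this gene the intervals leave room for changes from -5.48% to 6.63%. The sign of its differences turned with the animals included, from 0.01 for PB against VEH in all animals to -0.05 in animals 1 to 6.

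**Figure D2:**
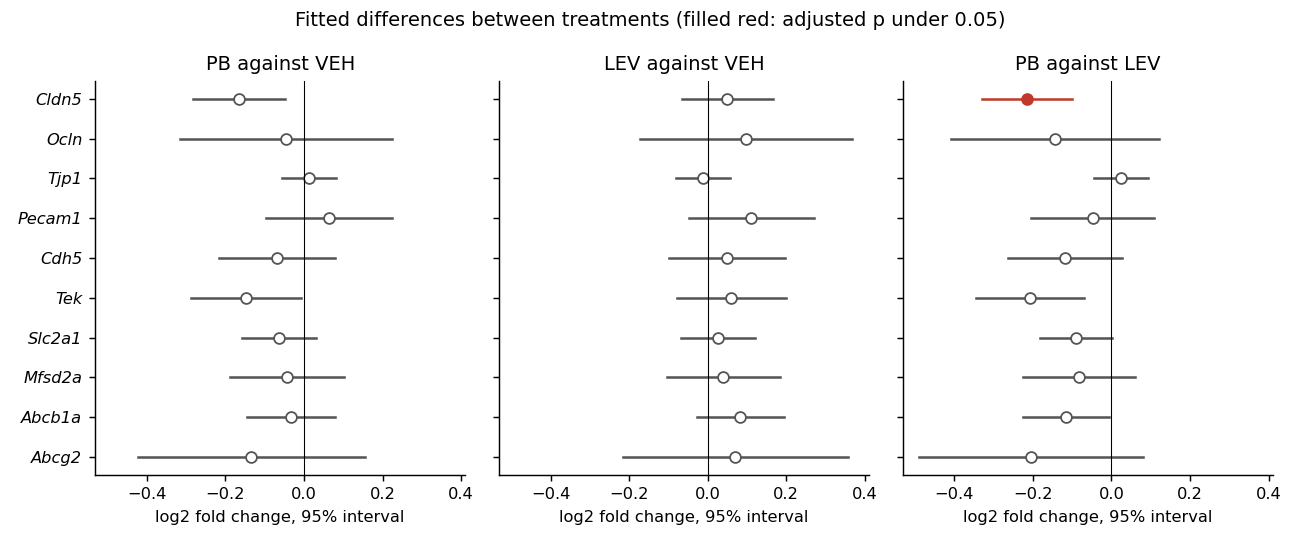
Log2 fold changes of the 10 genes (points) with 95% intervals (lines) in the fit with the series term, for PB against VEH, LEV against VEH and PB against LEV; the vertical line is 0. The filled red point is Cldn5 in PB against LEV at -0.22, and intervals are widest for Ocln and Abcg2.

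Of the genes of the endothelial surface, Pecam1 and Cdh5 had no clear difference. Pecam1 (NM_031591, chr10:94850971-94913203), the adhesion molecule CD31, ranged from 120.8 to 187.1 normalized counts in VEH (median 142.7), from 122.8 to 217.9 in PB (median 160.3) and from 121.7 to 198 in LEV (median 164.2). Both drug groups were centred above VEH and overlapped it almost fully, with log2 differences of 0.06 for PB (SE 0.0792, adjusted p = 0.713) and 0.11 for LEV (SE 0.0791, adjusted p = 0.914). Between the drugs the difference was -0.05 (SE 0.0775, adjusted p = 0.793). Cdh5 (NM_001107407, chr19:1025122-1074334) encodes VE-cadherin of the adherens junction. It ranged from 167.6 to 259.6 in VEH (median 207), from 145.6 to 254.6 in PB (median 200.9) and from 173 to 248 in LEV (median 219.9). The groups overlapped, and its differences were -0.07 for PB against VEH (adjusted p = 0.651), 0.05 for LEV against VEH (adjusted p = 0.973) and -0.12 for PB against LEV (adjusted p = 0.377).

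Tek (NM_001105737, chr5:113725717-113852800), the angiopoietin receptor TIE2, came next to Cldn5 in size. Its level was 202.7 to 273.5 in VEH with a median of 245.1, 145.4 to 266.9 in PB with a median of 218.4, and 196.8 to 291.2 in LEV with a median of 263.4. Most PB animals lay in the lower part of the common range, and the lowest was PB animal 2. PB and LEV differed by -0.21 (SE 0.068, 95% interval -0.34 to -0.07, adjusted p = 0.0702), and 11 of 14 PB values lay under the mean of LEV in the same series. Against VEH the estimates were -0.15 for PB (SE 0.0693, adjusted p = 0.221) and 0.06 for LEV (SE 0.0689, adjusted p = 0.953). The difference between the drugs passed with DESeq2 (adjusted p = 0.0481), with a series-by-treatment term (adjusted p = 0.0383), and when any of PB animals 12 and 13 or LEV animals 7 and 12 was left out (lowest adjusted p = 0.0374). With DESeq2 747 of all transcripts passed and with the series-by-treatment term 601, beside 581 in the main fit.

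The carriers differed by less than their intervals. Slc2a1 (NM_138827, chr5:138154680-138182898), the glucose transporter GLUT1, ran from 833.2 to 1042 normalized counts in VEH (median 947.4), from 764.4 to 1026 in PB (median 904.8) and from 761.6 to 1056 in LEV (median 987.9). Its estimates were -0.06 for PB against VEH (SE 0.0466, adjusted p = 0.478), 0.03 for LEV against VEH (SE 0.0465, adjusted p = 0.987) and -0.09 for PB against LEV (SE 0.0457, 95% interval -0.18 to 0.002217, adjusted p = 0.267). The groups shared nearly the same range, and the interval between the drugs reached just past 0. Mfsd2a (NM_001106683, chr5:140642870-140657746), the lipid carrier that holds transcytosis low, ran from 215.1 to 324.1 in VEH (median 258.9), from 179.4 to 350.4 in PB (median 262.1) and from 243 to 305 in LEV (median 281.6). PB animals spread over more than the range of the other groups. Its estimates were -0.04, 0.04 and -0.08 in the same order, with adjusted p of 0.798, 0.987 and 0.561.

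The efflux pumps are of interest because both drugs are given to act in the brain, and P-glycoprotein, the product of Abcb1a, and BCRP, the product of Abcg2, return many compounds to the blood. Abcb1a (NM_133401, chr4:22339829-22425382) ran from 198.8 to 285.7 in VEH (median 227.8), from 187.4 to 272.2 in PB (median 225.9) and from 180.9 to 301.1 in LEV (median 243.7). The groups overlapped throughout. Its estimates were -0.03 for PB against VEH (SE 0.0553, adjusted p = 0.793), 0.08 for LEV against VEH (SE 0.0551, adjusted p = 0.909) and -0.12 for PB against LEV (SE 0.0542, adjusted p = 0.22). In all 41 animals the estimated count of Abcb1a was not a whole number, so that its value is uncertain to that extent. Whether reads shared with the related gene Abcb1b account for this was not tested. The estimate of Abcb1b was -0.21 for PB against VEH (SE 0.0982, adjusted p = 0.206), and 12 of 14 PB animals lay under the VEH mean of their series. Of the 4 other efflux pump transcripts tested, 3 had an unadjusted p under 0.05 in that comparison, beside 20.2% of all transcripts. Abcb1b was lower, and Abcc1 and Abcc5 were higher. In LEV against VEH it was 2 of 4, beside 5.84%, and in PB against LEV 0 of 4. Abcg2 (NM_181381, chr4:88834066-88890269) had few counts, and its levels ran from 29.56 to 47.98 in VEH (median 34.27), from 9.166 to 47.57 in PB (median 33.53) and from 19.84 to 51.04 in LEV (median 40.06). PB animal 8, with 8 counts, lay far under the rest. Differences of -0.13, 0.07 and -0.20 had SEs of 0.143, 0.142 and 0.141, and adjusted p of 0.655, 0.989 and 0.443. For Abcg2 the 95% interval between the drugs spans -28.8% to 5.65%. Its SE was close to that of Ocln, and these were the widest intervals of the 10 genes.

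Within the series, the direction of several genes changed. Cldn5 in animals 1 to 6 was 1535 to 1712 in VEH, 1277 to 1826 in PB and 1744 to 1997 in LEV, and there the LEV and VEH animals did not overlap. It was the only one of the 10 genes without overlap in that comparison and series, where 3.17% of all transcripts had none. In animals 7 to 14 it was 1193 to 1809 in VEH, 1124 to 1639 in PB and 1353 to 1596 in LEV, and all groups overlapped. The LEV difference was 0.20 in the earlier and -0.07 in the later animals, and the test of that difference gave an unadjusted p of 0.0215 and an adjusted p of 0.291. Tek in animals 1 to 6 was 145.4 to 244.1 in PB and 261.8 to 274.6 in LEV. These did not overlap either, which held for 1 of the 10 genes and for 1.68% of all transcripts. In animals 7 to 14 the same groups overlapped, at 178.4 to 266.9 and 196.8 to 291.2. For Tek the drugs differed by -0.38 in the earlier animals and by -0.08 in the later ones (interaction p = 0.031, adjusted p = 0.695). For Abcg2 the difference between the drugs was 0.11 in the earlier and -0.47 in the later animals (interaction p = 0.0373, adjusted p = 0.706). No interaction of any of the 10 genes passed, the smallest adjusted p being 0.291.

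**Figure D3:**
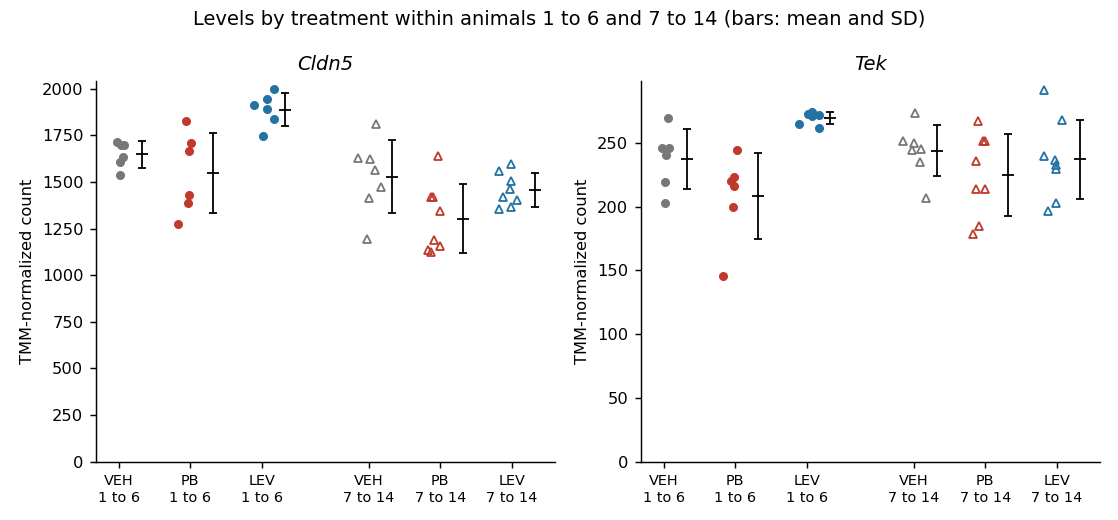
TMM-normalized counts of Cldn5 and Tek per animal by treatment, separately for animals 1 to 6 (filled circles) and 7 to 14 (open triangles), with the mean and SD as bars and axes from 0. In animals 1 to 6, LEV is above VEH without overlap for Cldn5 and above PB without overlap for Tek; in animals 7 to 14 all groups overlap.

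Other genes of the endothelium and barrier were counted from a fixed list of 53 symbols, of which 48 were in the table and 50 transcripts of 47 symbols were tested. For PB against VEH 3 transcripts passed, which is 6% of the 50 beside 5.39% of all transcripts, and for PB against LEV 2 passed, which is 4% beside 4.45%. The list as a whole was thus called about as often as transcripts in general. Tfrc, the transferrin receptor that carries iron, fell by 0.28 on the log2 scale (SE 0.058, adjusted p = 0.00367), from 1958 ± 209 normalized counts (SD, n = 13) to 1610 ± 234 (SD, n = 14). Slc16a1, the monocarboxylate carrier MCT1, fell by 0.16 (SE 0.04, adjusted p = 0.0138), and Abcc5, an efflux pump for organic anions and nucleotides, rose by 0.14 (SE 0.0361, adjusted p = 0.0182). All 14 PB values of Tfrc, and 13 of 14 of Slc16a1, lay under the VEH mean in the same series. For PB against LEV, Tfrc fell by 0.31 (SE 0.0569, adjusted p = 0.00128) and Slc16a1 by 0.18 (SE 0.0393, adjusted p = 0.00619). In LEV against VEH 0 of the 50 passed by edgeR, with 3 at an unadjusted p under 0.05, which is 6% beside 5.84% of all transcripts. Tfrc, Slc16a1 and Abcc5 are also expressed by neurons and glia, so a bulk value does not place them in the vessel.

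The transcripts of endothelial identity, such as Tie1, Flt1, Sox17 and Egfl7, were counted apart, and no test of the group was made. In PB against LEV, 14 of 15 had estimates below 0, where 48.7% of all transcripts did, and 0 passed. An unadjusted p under 0.05 was found for 5 of them, or 33.3%, beside 19.6% of all transcripts. Their median was -0.127 on the log2 scale. In LEV against VEH 15 of 15 were above 0, with a median of 0.0693, where 49.8% of all transcripts were below 0. Of these 15, 0 passed or had an unadjusted p under 0.05, which 5.84% of all transcripts had. In PB against VEH 12 of 15 were below 0, where 48.1% of all transcripts were, with a median of -0.0418 and 0 passing. An unadjusted p under 0.05 was found for 1 of them, or 6.67%, beside 20.2% of all transcripts. The 8 transcripts of barrier induction by Wnt signalling hold Ndp more than once, with equal values. In PB against VEH 8 of 8 were below 0 (median -0.0968), beside 48.1% of all transcripts, with 0 passing and 0 at an unadjusted p under 0.05. In LEV against VEH 7 of 8 were below 0 (median -0.0531), beside 49.8%, with 0 passing and 1 at an unadjusted p under 0.05. The sign was thus not particular to PB. Neither of the tested transcripts of the Tek ligands passed, and the same held for the junction partners, of which 10 were tested. At an unadjusted p under 0.05 each of these groups had 1 transcript in PB against VEH, and the junction partners had 1 in PB against LEV. The shares of all transcripts were 20.2% and 19.6% in these comparisons.

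Pericytes, smooth muscle cells, red blood cells, meningeal cells, astrocyte endfeet and choroid plexus can add RNA to the same dissection, and no transcript of these lists passed in any comparison by edgeR. Of all transcripts, 5.39% passed for PB against VEH, 0.00766% for LEV against VEH and 4.45% for PB against LEV. The paper's own DESeq2 comparison, on batch-normalized values, called transcripts of Slc1a2, a gene of the endfoot list, lower after LEV. The 10 endfoot transcripts belong to 4 symbols, with Aqp4 and Slc1a2 held more than once and some Aqp4 transcripts equal in value, so they are not separate genes. An unadjusted p under 0.05 in PB against VEH was found for 3 of 10 pericyte, 2 of 4 smooth muscle and 3 of 10 endfoot transcripts, beside 20.2% of all. In LEV against VEH it was found for 1 of 10, 1 of 4 and 3 of 10 of these, beside 5.84%. In PB against LEV it was found for 1 of 6 red blood cell and 2 of 10 endfoot transcripts, beside 19.6%. The other lists had 0. Summed pericyte transcripts were 3727 to 4149 normalized counts in VEH, 3241 to 4157 in PB and 3133 to 4225 in LEV, and 8 of 10 had estimates below VEH after either drug. Their median log2 difference was -0.0874 for PB against VEH, -0.0656 for LEV against VEH and 0.00167 for PB against LEV. The first of these was further from 0 than the median of the 10 barrier genes after PB, and the part of pericyte RNA in those estimates was not tested. Summed smooth muscle transcripts were 276.1 to 553.3 in VEH, 248.2 to 689.4 in PB and 248.8 to 756.3 in LEV, and meningeal transcripts were 2843 to 7687, 1359 to 11250 and 3492 to 8550. Both lists overlapped over most of their range. Summed endfoot transcripts were 16000 to 21080 in VEH, 13860 to 21090 in PB and 12950 to 22020 in LEV, and red blood cell transcripts were 258.3 to 15120, 299 to 12960 and 429.6 to 18680. Although these ranges overlapped, endfoot estimates were below VEH for 7 of 10 transcripts after PB (median -0.101) and 8 of 10 after LEV (median -0.142), and red blood cell estimates for 5 of 6 (median -0.43) and 6 of 6 (median -0.403). Between PB and LEV the medians were 0.0416 and 0.0438. The part of these cells in the differences of the barrier genes was not tested.

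Choroid plexus transcripts varied most. Their sum was 85.34 to 53790 normalized counts in VEH, 108.9 to 85160 in PB and 84.76 to 61660 in LEV, a spread within each group that exceeded any difference between them, although 11 of 11 transcripts had estimates above VEH in both drug groups, with medians of 0.627 for PB and 0.755 for LEV. The 11 transcripts hold Otx2 more than once, with equal values. Ocln followed the choroid plexus level over the 41 animals, after treatment and series were taken out, with Pearson r = 0.83 and Spearman rho = 0.82 (permutation p = 1e-05 for each, the smallest that 100000 permutations can give, adjusted over the 10 genes 1e-04). The r was 0.862 without the 2 animals farthest from the median, and among animals 1 to 6 it was 0.87 against 0.806 among animals 7 to 14. By treatment, r was 0.833 for VEH, 0.899 for PB and 0.825 for LEV. The other 9 genes had r from -0.156 to 0.284, and none passed (smallest adjusted p = 0.358). With the choroid plexus level as a covariate, the Ocln difference between LEV and VEH went from 0.10 to -0.03, and that between PB and VEH from -0.05 to -0.19 (adjusted p = 0.159). Cldn5 between PB and LEV stayed at -0.21 (adjusted p = 0.0221) with that covariate. Ocln also had r = 0.733 with the mean level of the other endothelial and barrier transcripts. That r was higher than for 99.4% of transcripts, beside 99.2% for its r with choroid plexus. With the meningeal list r was 0.473, and with the remaining lists it ran from -0.116 to 0.321. No p was computed for these other lists.

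**Figure D4:**
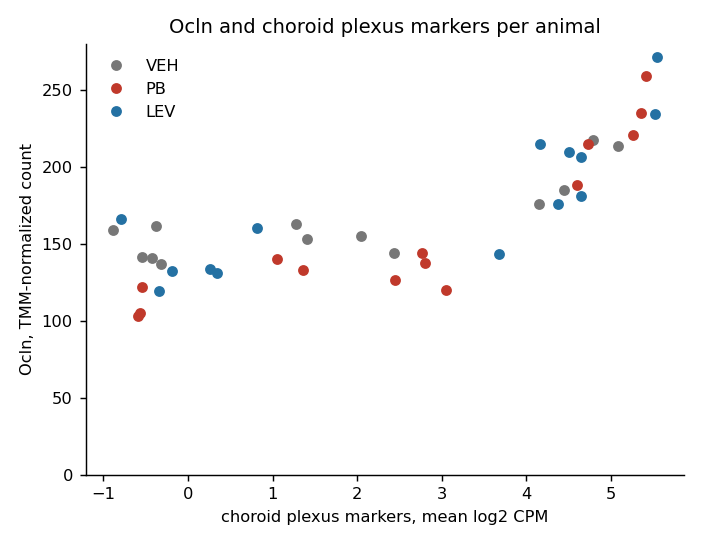
Ocln (vertical axis, TMM-normalized count, from 0) against the mean log2 CPM of the choroid plexus transcripts (horizontal axis), 1 point per animal, coloured by treatment. The horizontal values run from -0.891 to 5.55; Ocln is nearly level on the left and rises in the animals at the right end, which come from all 3 treatments.

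Among themselves, the 10 genes formed 45 pairs, and 2 pairs passed after adjustment over the pairs. Cldn5 and Tek had r = 0.544 and rho = 0.582 over the 41 animals (permutation p = 0.00022 and 0.00013, adjusted 0.00697 and 0.00292), with r = 0.539 without the 2 animals farthest from the median, 0.699 in animals 1 to 6 and 0.452 in animals 7 to 14. Cdh5 and Abcb1a had r = 0.54 and rho = 0.57 (permutation p = 0.00031 and 0.00013, adjusted 0.00697 and 0.00292), with 0.541, 0.654 and 0.433 in the same order. Pecam1 and Tek passed by rank (rho = 0.498, adjusted p = 0.0162) and not by Pearson r, which was 0.378 (adjusted p = 0.0793), fell to 0.248 without the 2 animals farthest from the median, and split into -0.0385 for animals 1 to 6 and 0.654 for animals 7 to 14.

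**Figure D5:**
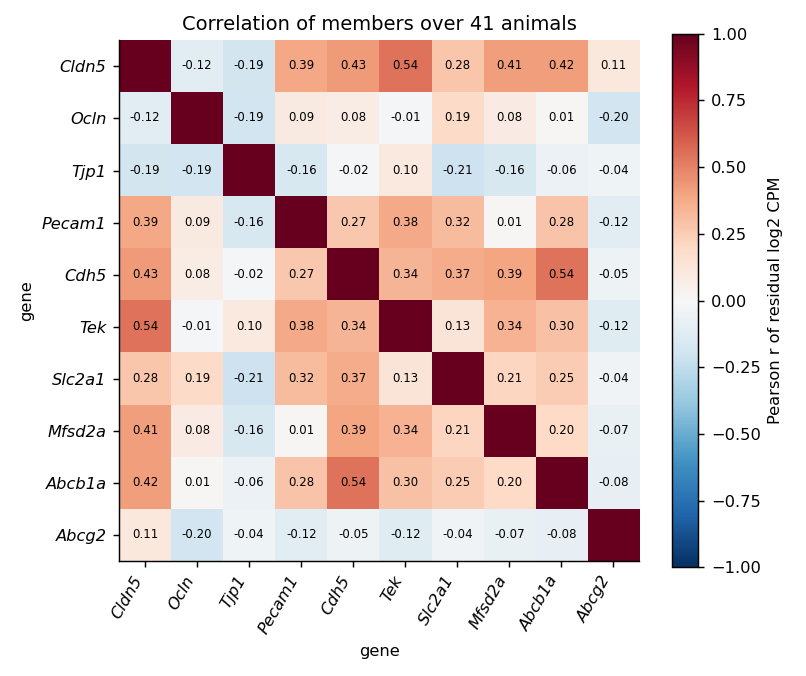
Pearson r between the 10 genes (rows and columns) over 41 animals, from log2 CPM after treatment and series were taken out; red is positive and blue negative on a scale from -1 to 1. The strongest pairs are Cldn5 with Tek at 0.544 and Cdh5 with Abcb1a at 0.54.

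The transcripts whose levels most resembled each gene over the 41 animals were taken from all those tested, with 3 named for each. They were the highest of many and carry no test. For Tek they were Tie1 (r = 0.787), its fellow receptor, Vwf (0.657), the von Willebrand factor of endothelial cells, and Tgm2 (0.648), and for Cdh5 they were Vwf (0.577), Tie1 (0.565) and Hrh3 (0.565). For Abcb1a they were Abcc6 (0.644), Tspan8 (0.64) and Acvrl1 (0.589), the last an endothelial receptor. The neighbours of Tek and the leading ones of Cdh5 thus included known endothelial genes, while those of the junction gene Cldn5 were Map3k10 (0.711), Fkbp8 (0.701) and Atp5f1d (0.696). Ocln had Gas6 (0.903), Prelp (0.9) and Pcp4l1 (0.894), which were the closest of all. Tjp1 was followed by Cd47 (0.719), Rock2 (0.715) and Sbno1 (0.707), and Pecam1 by Ctrb1 (0.668), Supt7l (0.609) and Spsb3 (0.608). These hold no defining endothelial marker. Slc2a1 had Cdc42ep4 (0.659), RGD1559896 (0.608) and Pttg1ip (0.591), Mfsd2a had Tmem254 (0.706), Acss2 (0.696) and Tubb4a (0.688), and Abcg2 had Lmbr1 (0.608), Taf2 (0.576) and Fbxl14 (0.548).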

How the data were processed

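Hippocampal RNA was sequenced after perfusion with buffer. The authors aligned reads to rn6 with STAR 2.7.3a and assigned them to transcripts by the expectation-maximization step of Partek. The deposited table holds these expected counts, not normalized, of which 13.4% are not whole numbers. They were rounded here. A deposited table of the authors' own comparisons (fold changes and p-values) was not used. Transcripts were filtered by edgeR 4.0.16 (filterByExpr), scaled by TMM and tested by its quasi-likelihood test in R 4.3.3, with treatment and the form of the sample code as terms, over 41 animals. Adjusted p-values are Benjamini-Hochberg over the 13062 transcripts tested. Standard errors are the fold change divided by the root of F. Intervals cover the spread between animals. The paper's methods take 1 animal per litter in each treatment, with treatments balanced within litter, from animals bought in 2 orders. The sample labels say neither which order nor which litter an animal came from. Correlations used residual log2 CPM (prior count 2) with treatment and code form removed. The named genes were all 10, the listed genes with adjusted p under 0.05, the 3 most alike transcripts, and a few other listed genes, such as Abcb1b. Members and lists were chosen with earlier results of these data known. Alternatives were DESeq2 1.42.0 and its size factors, no filter, no or an interacting series term, each series alone, the replicate number as block, all 14 VEH animals, counts per symbol, a choroid plexus covariate, a fold limit and leaving out each animal. The scripts were tested on simulated data.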

Additional observations from a re-analysis of the deposited data

Results flagged for a closer look

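The vehicle animal that its label excludes, number 7, stood above the 13 other VEH animals in 5 of the 10 genes. The share of all transcripts in which it stood above them was not computed, so the count cannot be read as particular to these genes. On a scale fitted with that animal included, Cldn5 was at 2152 normalized counts (13 other animals, 1192 to 1807), Pecam1 at 323.4 (120.7 to 186.9), Cdh5 at 498.1 (167.5 to 259.3), Slc2a1 at 1517 (832.3 to 1041) and Mfsd2a at 374.7 (214.8 to 323.8). Ocln, Tjp1, Tek, Abcb1a and Abcg2 lay within the range of the others. Its summed pericyte transcripts, at 7315, were also above the others (3723 to 4144), as were its meningeal sum, at 10790 (2840 to 7678), and the sum of the other endothelial and barrier transcripts, at 30140 (23360 to 25280). Its choroid plexus sum, at 19220, its red blood cell sum, at 724.2, its smooth muscle sum, at 482.5, and its astrocyte endfoot sum, at 20480, were within the range of the others. The study's methods give its read coverage, which stood apart from that of the other libraries, as the reason for leaving it out.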

How the results depend on the processing

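The groups held 13 or 14 animals, and the intervals of Abcg2 and Ocln were the widest of the 10 genes. For PB against VEH, the number of the 10 genes passing was 0 in all 12 alternatives other than leaving out an animal and ran from 0 to 1 when 1 animal was left out (Cldn5, without VEH animal 10 or PB animal 13). For LEV against VEH it was 0 under every alternative run. Of all transcripts, 64 to 899 passed in those 12 alternatives for PB against VEH, and 0 to 346 for LEV against VEH. For PB against LEV the number of the 10 genes passing was 1, beside 581 of all transcripts. It became 0 with the fold limit (76 of all transcripts), without the series term (288) and with all 14 VEH animals (174). In animals 1 to 6 alone (81) and in animals 7 to 14 alone (132) it was also 0. It became 2, with Tek, under DESeq2 (747) and with the series-by-treatment term (601), and ran from 1 to 2 when 1 animal was left out. The cause was not tested.

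Estimates changed sign as follows on the log2 scale, none passing the test. In animals 1 to 6 alone, PB against VEH became -0.0521 for Tjp1, 0.00635 for Cdh5, 0.0147 for Slc2a1, 0.00112 for Abcb1a and 0.0968 for Abcg2, LEV against VEH became -0.0163 for Abcg2, and PB against LEV became -0.00107 for Tjp1 and 0.113 for Abcg2. In animals 7 to 14 alone, LEV against VEH became -0.0702 for Cldn5, -0.0422 for Tek and 0.0245 for Tjp1, and PB against LEV became 0.0196 for Pecam1. With all 14 VEH animals, PB against VEH became -0.041 for Pecam1, and LEV against VEH became -0.0893 for Cdh5, -0.0356 for Slc2a1 and -0.00505 for Mfsd2a. With the choroid plexus covariate, LEV against VEH became -0.0315 for Ocln. When 1 animal was left out, Tjp1 ran from -0.00202 to 0.0288 for PB against VEH and from -0.0265 to 0.00439 for LEV against VEH.

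Whether equal replicate numbers mark litter mates is not known. The check of deviations that follows cannot decide it, since they also hold other differences between animals, such as those in choroid plexus transcripts. Of 40 same-numbered pairs, 11 had deviations correlated above 0.1 (range -0.35 to 0.283), and in 2 of 80 searches an animal was most like its own number in another group. With the replicate block in place of the series term, 1 gene passed for PB against LEV (Cldn5, -0.22, adjusted p = 0.0192) and 0 passed in the other comparisons (Cldn5 for PB against VEH, -0.16, adjusted p = 0.105), so that no call changed.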
